A study of Arabidopsis thaliana with 24 samples.

Results

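Total RNA was compared between the Arabidopsis thaliana mutant dxo1 and the wild type Col-0, both grown without added hormone. The comparison rests on 4 of the 24 libraries of the series, 2 labelled replicates of dxo1 NT and 2 of Col-0 NT, where NT stands for the normal condition without abscisic acid (ABA). All 4 were chosen by their labels, as the gene count files of total RNA. Plants of both genotypes were grown on 1/2 MS medium with 16 h of light and 8 h of dark a day, and were harvested as seedlings at 12 days. The labels give the mutant only as dxo1, with no allele, and do not say how many plants went into a library. They also name the tissue as bud tissue, and this was checked against marker genes below. The rest of the series holds the same genotypes with ABA, and 2 other kinds of library. GMUCT libraries, named for the mapping of uncapped and cleaved transcripts, hold RNA that has a free 5′ phosphate, and NAD libraries hold RNA captured through a 5′ NAD cap.

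DXO1 is the plant member of the DXO family of enzymes, which take non-canonical caps such as NAD off the 5′ end of RNA and so open it to decay. Most messenger RNA carries a 7-methylguanosine cap instead, which protects the 5′ end and aids translation. Arabidopsis plants that lack DXO1 are known to be small and pale green, and the pigment proteins and chloroplast genes behind leaf colour are among the gene groups described below. The gene lists were chosen with earlier results of these data known, so they are no prior expectation.

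The libraries were shallow. Gene counts, that is reads assigned to a gene, came to 1042343 and 1696427 in dxo1 and to 1016530 and 878113 in Col-0. Alignments that were not unique made up 96.1% and 93.6% of the total in dxo1 and 96.6% and 95.5% in Col-0, and none of these were counted in genes. Nuclear protein-coding genes held 216842 and 216966 counts in dxo1, against 267807 and 155135 in Col-0. Across the 4965 genes that passed a filter on low counts, replicates correlated at r = 0.90 in dxo1 and r = 0.87 in Col-0 on log2 levels. That is a correlation across genes, which are not independent replicates. The labels do not say that replicates came from separate plants, so the p-values below measure the spread between these samples, which may be technical.

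The make-up of the libraries differed between replicates as well as between genotypes. Genes of the chloroplast genome took 43.7% and 60.9% of gene counts in dxo1, against 28.2% and 43.9% in Col-0. The identifier ATCG00230 took the largest share among them, with 31.9% and 53.7% in dxo1 and 12.3% and 34.0% in Col-0. The other chloroplast genes together took 11.8% and 7.21% of gene counts in dxo1 and 15.8% and 9.89% in Col-0, which overlap. ATCG00230 stays in the total of these shares, so they fall as its own share rises, and no order is read from them. Nuclear protein-coding genes took 20.8% and 12.8% in dxo1 and 26.3% and 17.7% in Col-0. Small nucleolar RNA (snoRNA) genes, whose products guide chemical modification of ribosomal RNA, took 1.14% and 6.59% in dxo1 and 8.58% and 11.2% in Col-0. By this share dxo1 replicate 1 stood apart from the other 3 libraries. With 2 libraries against 2, an exact permutation test of 1 value cannot go below a two-sided p of 0.333, so these shares carry no test.

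**Figure D1:**
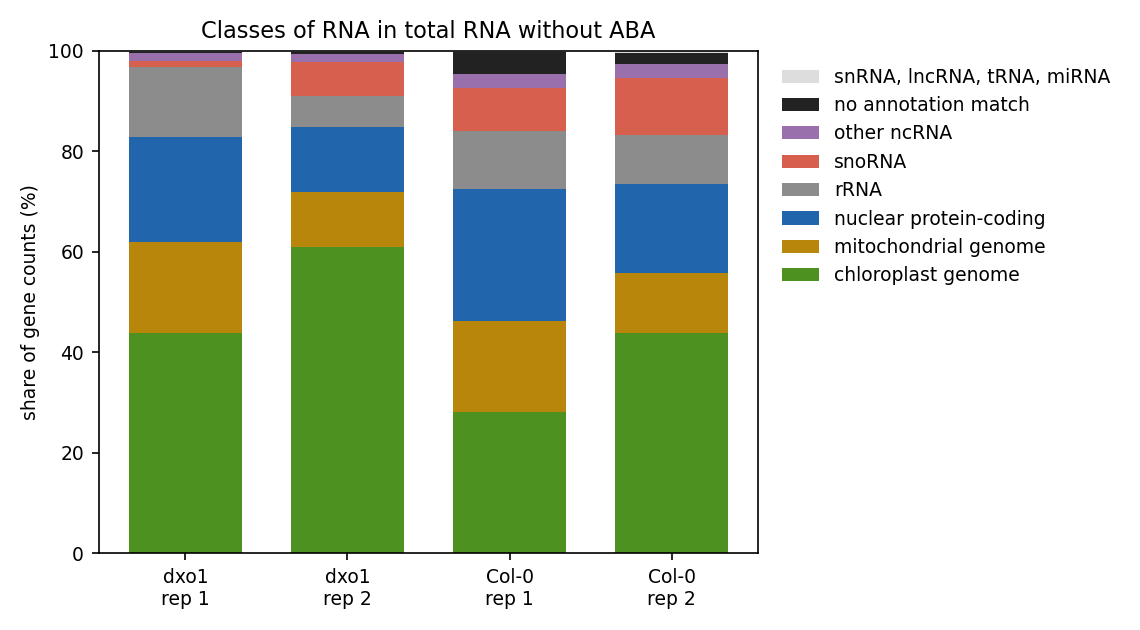
Share of gene counts (%, stacked bars) in each class of gene, for the 2 dxo1 and the 2 Col-0 libraries of total RNA without ABA. The chloroplast share was 43.7% and 60.9% in dxo1 and 28.2% and 43.9% in Col-0, and in both genotypes it was higher in replicate 2.

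DXO1 itself (AT4G17620) was too weakly counted for a test, with 2 and 4 counts in dxo1 and 8 and 3 in Col-0. In the GMUCT libraries it had 322 and 271 counts in dxo1 and 349 and 229 in Col-0, and fell by 0.50 ± 0.17 on the log2 scale (edgeR adjusted p = 0.0439), so reads of the gene were present in both genotypes. Of 12 floral organ markers, among them AP1, AP3, PI and AG, 11 had no count in any of the 4 libraries. The 12 together had 0 and 1 counts in dxo1 and 4 and 0 in Col-0, all of SEP3. Of 9 late seed storage genes 8 were at 0, and the other had 3 counts in 1 dxo1 library. Root markers were led by BGLU23 (PYK10), a myrosinase-type glucosidase, with 292 and 246 counts in dxo1 and 421 and 215 in Col-0. The other 9 root markers together had 18 and 14 counts in dxo1 and 16 and 7 in Col-0, with NRT2:1, PLT1 and WER at 0. Leaf genes such as those of Rubisco and the light-harvesting proteins were abundant in all 4 libraries.

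Few genes passed the test of dxo1 against Col-0. Of 4965 genes, 3 were lower in dxo1 (0.0604%) and none was higher (0%), by edgeR's quasi-likelihood test with Benjamini-Hochberg adjusted p below 0.05. At an unadjusted p below 0.05, 320 genes were higher and 350 lower, 13.5% of those tested. The DESeq2 Wald test gave 5 higher and 29 lower, with 2 of the same 3 genes among them. Scaling by library size alone gave 2 higher and 6 lower, and the fit with no low-count filter 83 higher and 45 lower. A fit that also blocked by replicate number gave 32 higher and 50 lower, though the labels do not pair same-numbered libraries. None was called with DESeq2 size factors, without organelle genes, with a filter at 10 CPM on average or in the 4 NT libraries alone. The calls depended on single libraries. Without Col-0 replicate 2, or without dxo1 replicate 1, none was left. Without Col-0 replicate 1 there were 2 lower genes, and without dxo1 replicate 2 there were 65 lower genes and none higher.

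The lower genes were AT1G53542, AT1G15002 and ATCG00590, each with an adjusted p of 0.0447. AT1G53542, annotated as an uncharacterized protein, had 3 and 12 counts in dxo1 and 99 and 112 in Col-0. On the scale of CPM, counts brought to a common library size and corrected by the trimmed mean of M values (TMM), this was 6.06 ± 5.74 in dxo1 and 133 ± 78.1 in Col-0 (SD, n = 2 each). Its log2 fold change was -4.47 ± 0.67 (SE, edgeR). AT1G15002, annotated as a long non-coding RNA antisense to the protein-coding gene AT1G15000, had 11 and 20 counts in dxo1 and 79 and 57 in Col-0. Its log2 fold change was -2.70 ± 0.44. ATCG00590, a chloroplast identifier that the annotation used here does not pair with a name, had 3 and 2 counts in dxo1 and 30 and 11 in Col-0, a log2 fold change of -3.45 ± 0.56. In all 3 genes, which were picked by their p, both dxo1 libraries lay below both Col-0 libraries, as in 23.3% of all genes tested.

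Both nuclear genes of these 3 hold a snoRNA gene on the same strand, which was seen after their values were known. The nested snoRNA genes have no count of their own in the files, and whether the counted reads came from the snoRNA or from the rest of the gene was not tested. The sequences of both loci are shown because a nested snoRNA gene is a feature that both have. AT1G53542 is 186 bases long on the plus strand of chromosome 1, and 116 of them are snoR138 (AT1G07903). AT1G15002 is 2056 bases long on the minus strand of chromosome 1, and AtsnoR92 (AT1G05137) takes 98 of them. That snoRNA is printed with 30 bases on either side. Sequences are from RefSeq's TAIR10.1 assembly, 5′ to 3′ along the gene, with the snoRNA in capitals.
AT1G53542: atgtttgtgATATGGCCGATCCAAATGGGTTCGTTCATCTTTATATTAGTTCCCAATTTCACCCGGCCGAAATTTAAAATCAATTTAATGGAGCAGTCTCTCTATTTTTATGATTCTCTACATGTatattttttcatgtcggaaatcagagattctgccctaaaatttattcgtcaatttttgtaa
AT1G15002: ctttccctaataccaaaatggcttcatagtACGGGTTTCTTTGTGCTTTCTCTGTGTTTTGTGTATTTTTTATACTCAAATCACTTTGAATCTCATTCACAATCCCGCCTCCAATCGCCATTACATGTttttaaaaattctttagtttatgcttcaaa

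SnoRNAs come in 2 families, and the letters at the 3′ end tell them apart in part. H/ACA snoRNAs, which guide pseudouridine formation, end in ACA followed by a few bases, and C/D snoRNAs, which guide ribose methylation, carry CTGA near the end. Both snoRNAs in capitals end in ACA and 3 more bases. Of the 287 snoRNA genes in the annotation, 52 (18.1%) have this end on their own strand, and 170 of the others (59.2%) have CTGA in the last 12 bases. A match of letters is a description and does not show the family of a given gene.

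Genes of the same kind had mostly negative log2 fold changes, 41 of 45. In all, 54 counted genes hold a same-strand snoRNA gene without a count of its own, and 45 of them were tested. In 25 of the 45 (55.6%) both dxo1 libraries lay below both Col-0 libraries, against 23.3% of all genes tested, and in 1 both lay above, against 24%. Their log2 fold changes had a median of -1.43, against 0.00 over all genes tested. Of the 45, 2 were called lower, against 0.0604% of all genes, and these 2 are the genes from which the group was formed. The 54 genes took 1.59% and 3.31% of gene counts in dxo1 and 9.09% and 9.50% in Col-0. The group was formed after the called genes were seen, and no test was made of it. It leaned on single libraries in size, with a median of -0.78 without dxo1 replicate 1, -0.80 without Col-0 replicate 2 and -3.02 without dxo1 replicate 2. In GMUCT without ABA the median of the 45 was -0.09, with 7 called higher and 11 lower. Of all genes tested in GMUCT 10.1% were called higher and 10.4% lower. In total RNA with ABA the median of the 45 was -0.30, with 32 negative and 13 positive.

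Some of these genes were among the most counted in the libraries. AT1G72645 had 1328 and 8044 counts in dxo1, against 31277 and 24462 in Col-0, a log2 fold change of -3.09 that did not pass the test (adjusted p = 0.139 by edgeR). AT-IE (AT1G31860), an enzyme of histidine synthesis that holds 3 snoRNA genes, had 544 and 1438 counts in dxo1 and 4083 and 4054 in Col-0, with a log2 fold change of -2.66. AT4G30993, of a phosphoesterase family, had 108 and 241 counts in dxo1 and 490 and 688 in Col-0. eIFiso4G1, a translation initiation factor, had 107 and 159 counts in dxo1 and 474 and 178 in Col-0. In each of the 4, both dxo1 libraries were below both Col-0 libraries on the CPM scale, as in 23.3% of all genes tested. The 4 were singled out after their values were seen, and none passed.

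Split by the end of the nested snoRNA, 15 tested genes hold only snoRNAs that end in ACA and 3 bases. All 15 had negative log2 fold changes, with a median of -1.52 and a range of -4.47 to -1.06. The lowest, AT1G53542, is a gene from which the group was formed. Of 11 genes whose nested snoRNAs have CTGA near the end, 9 were negative, with a median of -1.13. The 12 genes with neither end had a median of -1.55, and 11 of them were negative. The split leaves out genes whose nested snoRNAs do not all have the same end. It was also chosen after the values were seen.

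SnoRNA genes with counts of their own also had mostly negative log2 fold changes without ABA, 39 of 50, but not with ABA, where 19 were negative and 31 positive. Of 71 in the files 50 were tested, and 0 were called by edgeR, with 3 higher and 14 lower at an unadjusted p below 0.05. In 16 of the 50 (32%, against 23.3% of all genes tested) both dxo1 libraries were below both Col-0 libraries and in 3 they were above. The median log2 fold change was -0.80. It was -2.81 without dxo1 replicate 2 and -1.29 without Col-0 replicate 1, kept its sign at -0.07 without dxo1 replicate 1 and turned to 0.10 without Col-0 replicate 2. AT4G39364 had 1587 and 14338 counts in dxo1 and 15756 and 19585 in Col-0. AT3G21805, the snoRNA gene with the most counts, had 1998 and 55830 counts in dxo1 and 25821 and 28290 in Col-0. On the CPM scale dxo1 replicate 2 lay between the Col-0 libraries and dxo1 replicate 1 below them. Among 11 tested genes for spliceosomal small nuclear RNA the median was -1.01, with U1.5 at 710 and 1123 counts in dxo1 and 1535 and 893 in Col-0. That median was -0.48 without dxo1 replicate 1, -1.87 without dxo1 replicate 2 and -1.53 without Col-0 replicate 1, and turned to 0.32 without Col-0 replicate 2.

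AT2G33430, an identifier with no match in the annotation used here, was also low in both dxo1 libraries. It had 2178 and 7066 counts in dxo1, against 44173 and 20723 in Col-0, or 0.209% and 0.417% of gene counts against 4.35% and 2.36%. Its log2 fold change of -3.22 ± 0.74 did not pass (edgeR adjusted p = 0.0875). In GMUCT libraries its log2 fold change was -0.03 ± 0.16.

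**Figure D2:**
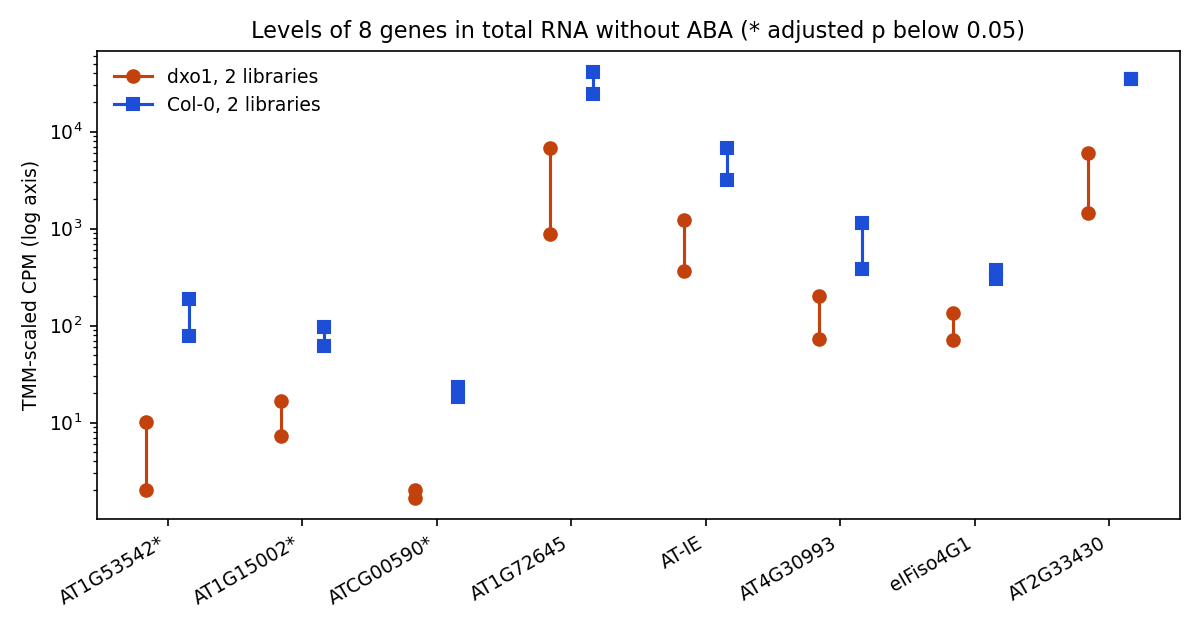
TMM-scaled CPM (log axis) of the 3 called genes, marked with an asterisk, of 4 further genes that hold an uncounted snoRNA gene, and of AT2G33430. Circles are the 2 dxo1 libraries and squares the 2 Col-0 libraries. In all 8 genes both dxo1 libraries lie below both Col-0 libraries, as in 23.3% of all genes tested. The 8 were picked by p or after their values were seen, so this follows from the choice. AT1G53542 averaged 6.06 CPM in dxo1 and 133 in Col-0.

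Light-harvesting genes, which encode the chlorophyll a/b-binding antenna proteins of both photosystems, had small differences that ran the same way in nearly every member. In 16 of the 17 tested (94.1%) both dxo1 libraries were below both Col-0 libraries, against 23.3% of all genes tested. None was called, and 3 had an unadjusted p below 0.05. The median log2 fold change was -0.49, and in the 13 alternative settings it stayed between -0.55 and -0.32. Their summed counts were 4.65% and 4.55% of protein-coding counts in dxo1 and 7.03% and 6.98% in Col-0, leaving out genes that hold an uncounted snoRNA. Whether libraries overlapped depended on the scaling, here and in the lists below. With library size alone, 412 of all 4965 genes had both dxo1 libraries lower and 765 had both higher, in place of 1157 and 1191 with TMM. With library size alone none of the 17 was apart, and with DESeq2 size factors 16 were lower in both dxo1 libraries, the same number as with TMM.

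LHCB6, a minor antenna protein of photosystem II, had the lowest log2 fold change of the family. It stood at 222 and 227 CPM in dxo1 and at 449 and 446 CPM in Col-0, a log2 fold change of -0.995 ± 0.37 (edgeR adjusted p = 0.273). LHCA3, of the photosystem I antenna, stood at 495 and 492 CPM in dxo1 and 890 and 892 CPM in Col-0, and LHCB5 at 598 and 540 CPM in dxo1 and 991 and 998 CPM in Col-0. In both genes the 2 libraries of a genotype differed by far less than the genotypes did. LHCB1.3 had a log2 fold change of -0.98 and LHCB1.5, at the other end of the lower members, -0.15. The LHCB1 genes are near-identical copies, and since reads that align in several places were not counted, their separate values are uncertain. LHCB2.3 was the only member with both dxo1 libraries above, at 91.4 and 96.2 CPM in dxo1 and 57.8 and 62.1 CPM in Col-0, a log2 fold change of 0.65 ± 0.34 (edgeR adjusted p = 0.443).

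**Figure D3:**
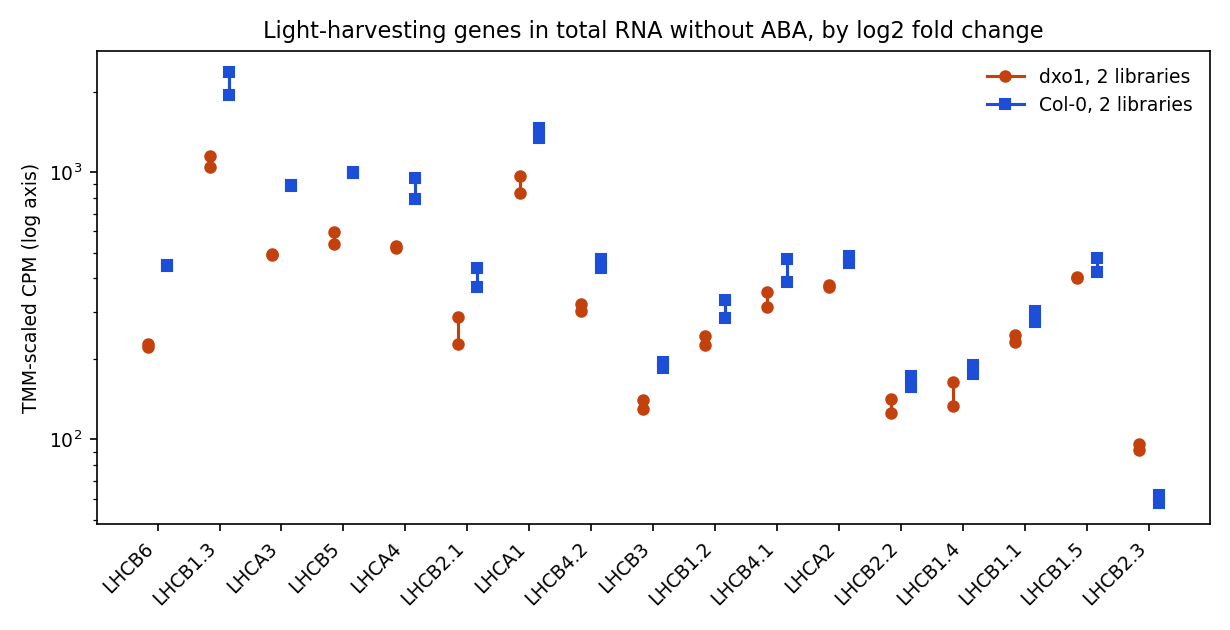
TMM-scaled CPM (log axis) of the 17 tested light-harvesting genes, ordered by log2 fold change. Circles are the 2 dxo1 libraries and squares the 2 Col-0 libraries. With TMM scaling the dxo1 libraries lie below both Col-0 libraries in 16 genes and above them in LHCB2.3, and with library size alone they lie apart in none.

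Other photosynthesis genes of the nucleus did not share this pattern throughout. Among 33 genes for subunits of the photosystems and of electron transport, 14 had both dxo1 libraries lower (42.4%, against 23.3% of all genes) and 5 had both higher (15.2%, against 24%), with a median of -0.21. Scaled by library size, these counts were 2 and 3 and the median was -0.11, and with no low-count filter the median was -0.05. Without dxo1 replicate 1 it was -0.11 and without Col-0 replicate 2 it was -0.10. As a share of protein-coding counts, taken as for the light-harvesting genes, the 33 held 2.23% and 2.28% in dxo1. In Col-0 they held 2.62% and 2.70%. PSAN, a lumenal subunit of photosystem I, stood at 79.4 and 108 CPM in dxo1 and 249 and 243 CPM in Col-0, a log2 fold change of -1.39 ± 0.36 (edgeR adjusted p = 0.116). DRT112, a plastocyanin that carries electrons between the photosystems, stood at 143 and 142 CPM in dxo1 and 320 and 322 CPM in Col-0. PSB27, an assembly factor of photosystem II, stood at 110 and 142 CPM in dxo1 and 35.9 and 52.0 CPM in Col-0, a log2 fold change of 1.54 ± 0.44 (edgeR adjusted p = 0.156).

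Genes of Rubisco and the Calvin cycle, which fix carbon dioxide, had a positive median. Of 16 tested, 9 had both dxo1 libraries higher (56.2%, against 24% of all genes) and 2 both lower, with a median of 0.26 and none called. Under library size scaling 3 were higher and none lower, with a median of 0.43, and without Col-0 replicate 1 the median was 0.16. In GMUCT the median of the 16 was -0.16. Their share of protein-coding counts, taken as for the light-harvesting genes, was 2.88% and 2.41% in dxo1. In Col-0 it was 2.45% and 2.34%, so the genotypes overlap. CP12-2, a regulator of Calvin cycle enzymes, stood at 89.4 and 113 CPM in dxo1 and 7.82 and 35.2 CPM in Col-0, a log2 fold change of 2.38 ± 0.66 (edgeR adjusted p = 0.153). TKL1, a transketolase, had a log2 fold change of 0.59 ± 0.36. RBCS1A, a small subunit of Rubisco, had 1049 and 694 counts in dxo1 and 685 and 404 in Col-0, with overlapping CPM and a log2 fold change of 0.08 ± 0.44. RBCS2B at -1.10 and RBCS1B at 1.48 are near copies of each other in tandem, and their separate values are uncertain. Chlorophyll synthesis genes were mixed, with 6 of 18 lower (33.3%, against 23.3%) and 5 higher (27.8%, against 24%) in both dxo1 libraries. The library size scaling left 1 lower and 2 higher. GLK2, a transcription factor that drives photosynthesis genes, had 5 and 6 counts in dxo1 and 15 and 8 in Col-0, and GUN4, an activator of magnesium chelatase, had 37 and 16 in dxo1 and 6 and 7 in Col-0.

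Genes of the organelle genomes had negative medians. Of 91 tested chloroplast identifiers, 56 (61.5%, against 23.3% of all genes tested) had both dxo1 libraries below both Col-0 libraries. In 9 (9.89%, against 24%) both lay above. The median log2 fold change was -0.53, and 1 was called. Of 22 tested mitochondrial identifiers, 12 (54.5%, against 23.3%) were lower in this sense and 1 higher (4.55%, against 24%). Their median was -0.58 and 0 were called by edgeR, with 8 of them lower at an unadjusted p below 0.05. Leaving out 1 library at a time kept the chloroplast median between -0.73 and -0.56 and the mitochondrial one between -0.73 and -0.53. With scaling by library size alone, 31 chloroplast and 9 mitochondrial identifiers were lower in both dxo1 libraries, as were 412 of all 4965 genes. In bulk RNA, fewer cells of a type and less RNA per cell cannot be told apart.

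Genes induced by darkness and sugar starvation had 4 of 5 members lower in both dxo1 libraries (80%, against 23.3% of all genes; 2 with library size alone), a median of -1.09 and 3 with an unadjusted p below 0.05. None was called. ASN1, an asparagine synthetase, stood at 30.7 and 31.2 CPM in dxo1 and 93.0 and 87.2 CPM in Col-0, a log2 fold change of -1.54 ± 0.35 (edgeR adjusted p = 0.0867). DRM1, a dormancy-associated gene, had 4 and 9 counts in dxo1 and 46 and 10 in Col-0, a log2 fold change of -2.47 ± 0.56 (edgeR adjusted p = 0.0875), and DRM2 stood at -1.09 ± 0.35. SEN1, a senescence-associated gene, had a log2 fold change of -0.61 and DIN10, a raffinose synthase family member, one of -0.32. The median of the 5 stayed between -1.25 and -0.91 in the 13 alternative settings.

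Defence genes of the salicylate pathway were barely counted, with 4 of 27 tested. Of these 3 had both dxo1 libraries higher (75%, against 24% of all genes), or 1 with library size alone, with a median log2 fold change of 0.75 and none called. In GMUCT the median of the same 4 was -0.09. PR1, a secreted pathogenesis-related protein and the common marker of this pathway, had 19 and 19 counts in dxo1 and 1 and 0 in Col-0. That is a ratio of 26.6 with a 95% exact counting interval of 4.49 to 1076, and it did not pass (edgeR adjusted p = 0.125). WRKY33, a transcription factor of the pathogen response, stood at 0.87 ± 0.61, the immune receptor gene SNC1 at 0.62 ± 0.45 and the salicylate receptor NPR1 at 0.19 ± 0.45. In the deeper GMUCT libraries 25 of the 27 could be tested, and 14 were called higher and 2 lower, where 10.1% of all genes tested in GMUCT were called higher and 10.4% lower.

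Genes of RNA metabolism had no calls. Among 7 tested genes of the small RNA pathway all had positive log2 fold changes, with a median of 0.69, and 2 had both dxo1 libraries higher (28.6%, against 24% of all genes). The median was 0.42 without dxo1 replicate 1 and 1.91 without Col-0 replicate 1. With ABA it was -0.48, with 4 of the 7 negative. DCL1, which cuts microRNA precursors, had 19 and 16 counts in dxo1 and 4 and 2 in Col-0, a log2 fold change of 1.99 ± 0.59 (edgeR adjusted p = 0.168). Reads from a microRNA gene inside it and from genes antisense to it could add to its count. DCL2, which makes small interfering RNA, had 19 and 17 counts in dxo1 and 6 and 1 in Col-0, and overlaps another gene on the same strand. Of 9 tested genes of messenger RNA decay and cap binding, 5 were higher in both dxo1 libraries (55.6%, against 24% of all genes) and none lower, with a median of 0.31. With library size alone 2 were higher. The median was 0.10 without dxo1 replicate 1 and 0.69 without dxo1 replicate 2, and in GMUCT the median of the 9 was -0.12. CBP20, the small subunit of the nuclear cap-binding complex, had 20 and 23 counts in dxo1 and 8 and 5 in Col-0, a log2 fold change of 1.19 ± 0.52. The nuclear exonuclease XRN3 stood at 0.77 ± 0.46.

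Genes of ribosome assembly had 3 of 6 members higher in both dxo1 libraries (50%, against 24% of all genes; 2 with library size alone) and a median of 0.58. The median was 0.37 without Col-0 replicate 1 and 1.02 without Col-0 replicate 2. CBF5, the pseudouridine synthase of H/ACA particles, had 14 and 19 counts in dxo1 and 7 and 2 in Col-0, a log2 fold change of 1.39 ± 0.59. FIB2, which makes the methyltransferase fibrillarin of C/D snoRNA particles, had 28 and 18 counts in dxo1 and 5 and 3 in Col-0, a log2 fold change of 1.96 ± 0.52 (edgeR adjusted p = 0.125). The other fibrillarin gene, FIB1, stood at 0.55 ± 0.44. Among 20 cytosolic ribosomal protein genes 9 were higher (45%, against 24% of all genes) and 2 lower (10%, against 23.3%) in both dxo1 libraries, with a median of 0.12. With library size alone 3 were higher and none lower. The median was 0.04 without dxo1 replicate 2, 0.23 without dxo1 replicate 1 and 0.20 without Col-0 replicate 1. RPL4D stood at 223 and 332 CPM in dxo1 and 69.6 and 151 CPM in Col-0.

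Of the remaining lists none had a called member. Among 10 glucosinolate genes 4 were higher in both dxo1 libraries (40%, against 24% of all genes) and 1 lower, or 2 and 0 with library size alone. CYP79F1, which starts the synthesis of aliphatic glucosinolates, had 61 and 55 counts in dxo1 and 19 and 5 in Col-0, and the myrosinase TGG2, which cleaves them, had 134 and 109 in dxo1 and 36 and 25 in Col-0. The log2 fold change of CYP79F1 was 1.82 ± 0.48 (edgeR adjusted p = 0.126). Among 9 aquaporins 5 were lower (55.6%, against 23.3% of all genes) and 1 higher, or 0 and 1 with library size alone, with TIP1;2 at -0.98 ± 0.37 and PIP2A at 0.87 ± 0.48. Of 6 genes of the clock and of cold-regulated RNA-binding proteins 2 were higher (33.3%, against 24% of all genes) and none lower. In GMUCT 2 of these 6 were called lower and none higher, where 10.4% of all genes tested in GMUCT were lower and 10.1% higher. The RNA-binding protein gene GRP7, a clock output, stood at 216 and 224 CPM in dxo1 and 116 and 129 CPM in Col-0. TT4, the chalcone synthase of flavonoid synthesis, had 27 and 26 counts in dxo1 and 4 and 10 in Col-0. Of 12 tested ABA and dehydration genes 1 was lower (8.33%, against 23.3% of all genes) and none higher (0%, against 24%). With library size alone 2 were higher and none lower. COR47, a dehydrin, stood at -0.93 ± 0.36. Of 8 reference genes often used for normalization none was called, and 4 were lower (50%, against 23.3% of all genes) and 1 higher in both dxo1 libraries. None was apart with library size alone, and their median was -0.03 in place of -0.17. ACT8 stood at 41.4 and 51.5 CPM in dxo1 and 106 and 83.9 CPM in Col-0, and EF1A at 186 and 168 CPM in dxo1 and 138 and 131 CPM in Col-0.

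Few members of the other lists could be tested, and none was called. Of 4 tested jasmonate genes 1 was higher in both dxo1 libraries (25%, against 24% of all genes), with a median of 0.68. Of 5 tested genes of plastid transcription 2 were higher (40%, against 24%) and none lower (0%, against 23.3%), with a median of -0.24. Of 3 tested heat shock genes 1 was lower (33.3%, against 23.3%), with a median of -0.11. The 3 tested genes of NAD synthesis and of Nudix hydrolases overlapped between genotypes, with a median of 0.18. Of 4 tested metallothionein genes, whose products bind metal ions, 1 was lower (25%, against 23.3%). This was MT2B, with 105 and 101 counts in dxo1 and 176 and 79 in Col-0. Its log2 fold change was -0.80 ± 0.34. Both tested cell cycle genes were higher in both dxo1 libraries, against 24% of all genes, or 1 of them with library size alone. MCM2, a subunit of the helicase that opens DNA for replication, had 17 and 12 counts in dxo1 and 5 and 0 in Col-0. The iron store FER1, at 0.34 ± 0.35, was the sole tested member of the iron list, and the sole tested gene of mitochondrial stress overlapped between genotypes.

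**Figure D4:**
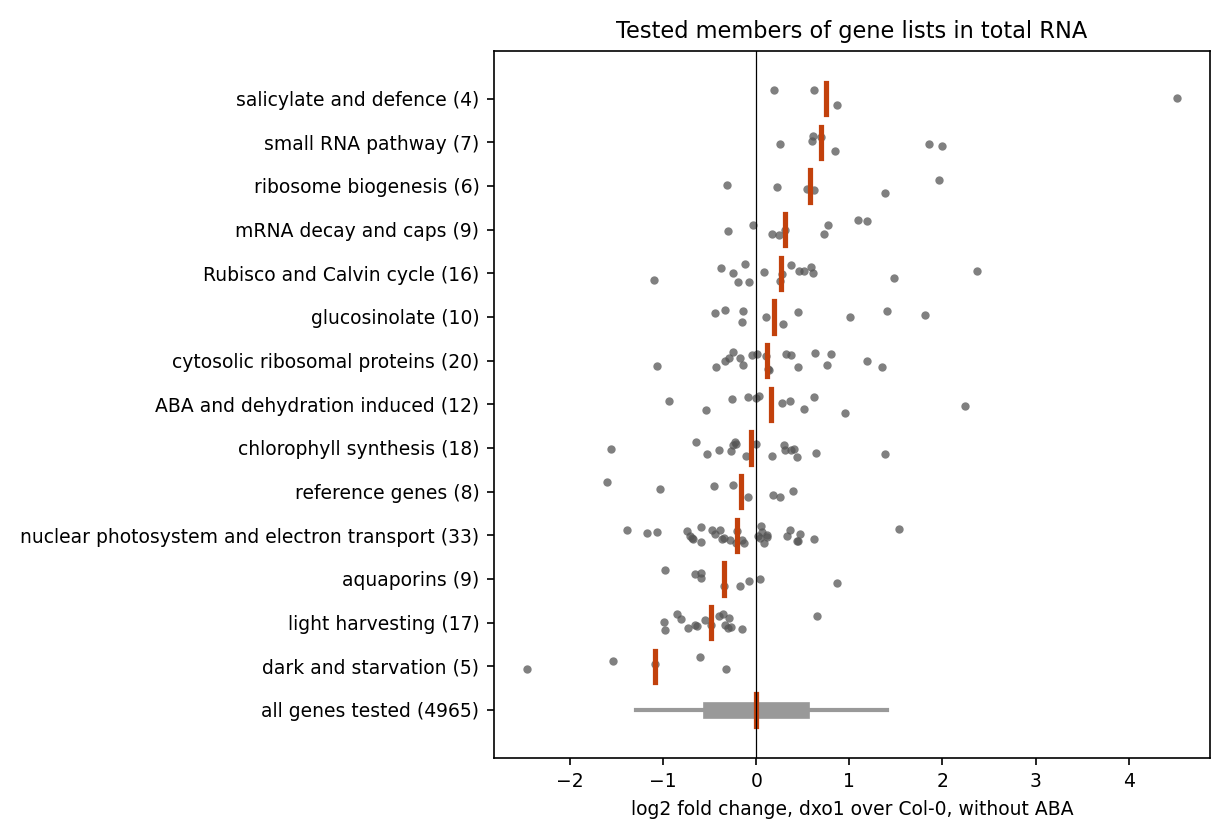
Log2 fold change, dxo1 over Col-0, of the tested members of 14 gene lists (dots) with each list's median (bar); the number tested is in parentheses. The grey bar shows the middle of all 4965 genes tested, from percentile 25 to 75, and the thin line percentile 5 to 95. Dark and starvation genes had a median of -1.09 and light-harvesting genes of -0.49, and the defence genes one of 0.75.

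Beyond the lists, the protein-coding genes with the smallest p in each direction are described by their counts, since, apart from AT1G53542, none passed. Among the higher ones was ATSPS4F, a sucrose-phosphate synthase, which makes the precursor of sucrose. It had 71 and 51 counts in dxo1 and 16 and 3 in Col-0, a log2 fold change of 2.22 ± 0.42 (edgeR adjusted p = 0.0630). AT4G33865, a ribosomal protein gene of the S14p/S29e family, had 152 and 527 counts in dxo1 and 28 and 18 in Col-0, so that both dxo1 libraries were above both Col-0 libraries, and dxo1 replicate 2 was the higher. EID1, an F-box protein known from phytochrome A signalling, had 15 and 10 counts in dxo1 and 0 and 0 in Col-0, at least 5.82-fold higher against a floor of 3 counts over the Col-0 group.

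AT1G12620, a pentatricopeptide repeat protein, had 27 and 27 counts in dxo1 and 2 and 0 in Col-0, a ratio of 18.9 with a 95% exact counting interval of 4.98 to 160. AT1G14460, an AAA-type ATPase, had 48 and 44 counts in dxo1 and 4 and 3 in Col-0. AT4G36980, annotated as a serine/arginine-rich protein, had 79 and 51 counts in dxo1 and 15 and 5 in Col-0, and BBX14, a B-box zinc finger protein, had 58 and 56 in dxo1 and 14 and 8 in Col-0. AT4G23680, of a lipid transport family, AT2G27680, an oxidoreductase, and AT1G52100, a lectin, had log2 fold changes of 2.82, 1.99 and 2.51. Their adjusted p by edgeR were 0.0688, 0.0733 and 0.0839.

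The lower genes included AE7, a component of the cytosolic iron-sulphur cluster assembly pathway, with 2 and 2 counts in dxo1 and 20 and 12 in Col-0. Its log2 fold change was -3.46 ± 0.59 (edgeR adjusted p = 0.0537). DI19, a drought-induced zinc finger gene, had 16 and 22 counts in dxo1 and 64 and 40 in Col-0, and BGAL4, a beta-galactosidase, had 79 and 100 in dxo1 and 347 and 152 in Col-0. Their log2 fold changes were -2.00 ± 0.39 and -1.94 ± 0.38. ROC2, a cyclophilin, had 18 and 50 counts in dxo1 and 141 and 167 in Col-0, and HIR2, a membrane-associated protein, had 9 and 6 in dxo1 and 40 and 15 in Col-0. AT1G54010, of the lipase family GDSL, had 1 and 2 counts in dxo1 and 18 and 10 in Col-0, a ratio of 0.0749 with a 95% exact counting interval of 0.0146 to 0.242. AT5G21020 had a log2 fold change of -2.69 and AT4G28240, of a wound-responsive family, which overlaps another gene on the same strand, one of -2.23. ASN1, given above, was the tenth.

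The GMUCT libraries of the same genotypes and condition measure RNA with a free 5′ phosphate, which is not the level of total RNA. A call in them is therefore not a repeat of one in total RNA. They are 4 other libraries, with 13940464 and 13713658 gene counts in dxo1 and 11792121 and 9280864 in Col-0. There 1981 of 19644 genes were called higher (10.1%) and 2037 lower (10.4%). With scaling by library size alone 3475 were higher and 1301 lower. Of 4932 genes tested in both, 58.1% had the same sign in GMUCT and total RNA, and of the 656 with an unadjusted p below 0.05 in total RNA, 72.6% did. Across the 4932 genes the Pearson correlation of the log2 fold changes was 0.31, a description over genes that share libraries. Of the 20 protein-coding genes with the smallest p each way, 16 had the same sign, 13 of these were called in GMUCT, and none was called in the opposite direction. Of all 4754 protein-coding genes tested in both, 57.3% had the same sign. In GMUCT 781 of the 4754 were called in the same direction and 382 in the opposite one.

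For some genes GMUCT gave a clear call. EID1 stood at 93.8 and 83.2 CPM in GMUCT of dxo1 and 35.5 and 35.8 CPM in GMUCT of Col-0, a log2 fold change of 1.31 ± 0.15 (edgeR adjusted p = 1.16e-05). PR1 rose by 4.91 ± 0.32 on the log2 scale (edgeR adjusted p = 3.99e-08) and DRM1 fell by 3.07 ± 0.17 (edgeR adjusted p = 4.45e-09). AT5G21020 fell by 2.66 ± 0.17 on the log2 scale and AT4G33865 rose by 2.36 ± 0.17. Of the light-harvesting genes 8 of 18 were called lower and none higher, and of the photosystem and electron transport genes 20 of 33 were lower and none higher. In the dark and starvation list 4 of 5 were lower. Of the 16 genes of Rubisco and the Calvin cycle 1 was called lower and none higher. Over all genes tested in GMUCT 10.4% were called lower and 10.1% higher. Among the 4932 genes tested in both, 739 were called lower in GMUCT and 503 higher. For AE7 (0.04 ± 0.26) and AT1G12620 (-0.30 ± 0.20) GMUCT gave no call. AT1G15002 fell in GMUCT by 1.95 ± 0.39 on the log2 scale (edgeR adjusted p = 0.00175), and AT1G53542 stood at -0.75 ± 0.67.

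**Figure D5:**
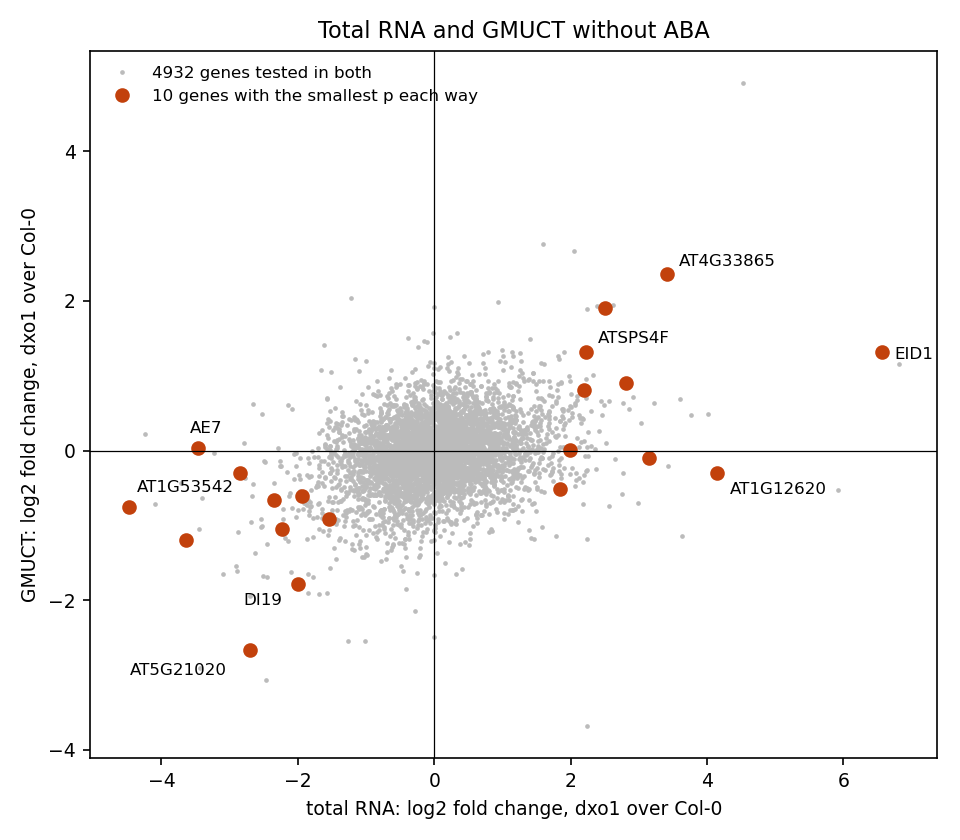
Log2 fold change, dxo1 over Col-0 without ABA, in total RNA (x axis) and in GMUCT (y axis) for the 4932 genes tested in both (grey), with the 10 protein-coding genes of smallest p in total RNA each way in colour. Of these 20 genes 16 lie in the quadrants of equal sign, as do 58.1% of the 4932.

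With ABA, total RNA of the same genotypes gave 0 higher and 2 lower genes of 4965 (0.0403% lower) by edgeR, from 4 other libraries. Of all 4965 genes 60.8% had the same sign with ABA as without, and of the 20 genes above 17 did. ATSPS4F stood at 22.7 and 22.8 CPM in dxo1 with ABA and at 10.3 and 9.14 CPM in Col-0 with ABA. ASN1 stood at 7.96 and 13.5 CPM in dxo1 with ABA and at 33.9 and 34.5 CPM in Col-0 with ABA. All 17 light-harvesting genes had negative log2 fold changes with ABA, with a median of -0.20, and the 5 dark and starvation genes a median of -1.68. The 50 tested snoRNA genes had a median of 0.22 with ABA, with 31 positive and 19 negative. For AT1G53542, AT1G15002 and ATCG00590 the log2 fold changes with ABA were -0.98, -0.56 and 0.07, and none passed. The difference between the genotype effects with and without ABA was tested as an interaction, and no gene passed in edgeR, with 293 at an unadjusted p below 0.05 and 10 calls without dxo1 NT replicate 2. For these 3 genes the interaction stood at 3.49 ± 0.85, 2.14 ± 0.59 and 3.53 ± 0.73, with an edgeR adjusted p of 0.697 each. They were picked by their difference without ABA, which the interaction subtracts, so these values are no independent test. The NAD libraries without ABA gave 10 higher (0.262%) and 2 lower genes (0.0524%) of 3814, and none of the 3 called genes or of the 20 genes with the smallest p was among them.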

How the data were processed

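The deposited files hold raw counts: each value is a whole number of reads. Per the labels, reads were strand-specific, single-end and 50 nt long. Per the submitters' processing notes, the authors used cutadapt, STAR 2.4.2a, HTSeq and TAIR10. Which HTSeq mode and gene models they chose is not given in the sources used here. HTSeq summary rows, which name no gene, were dropped: alignments that were not unique made up 93.6% to 96.6% of each library, and reads in no feature 0.783% to 1.48%. A TAIR10.1 table gave names and classes to 28009 of 28775 identifiers (97.3%). Since the builds differ, no coordinates are printed.

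The 8 total RNA libraries were fitted together in edgeR 4.0.16 (R 4.3.3) by group, after filterByExpr with a minimum count of 10 and TMM scaling, with quasi-likelihood tests of dxo1 NT against Col-0 NT and Benjamini-Hochberg adjustment at 0.05 over all genes tested. The 8 GMUCT and the 8 NAD libraries were fitted alike, each in its own fit. Each SE is approximate, computed as the log2 fold change without its sign divided by the root of the F statistic. CPM divide a count by the library's total in tested genes times its TMM factor, which was 1.49 and 0.712 in dxo1 and 1.30 and 0.691 in Col-0. Intervals and floors cover counting error only. Alternatives included the DESeq2 1.42.0 Wald test. The fit of dxo1 NT against Col-0 NT total RNA was tested on simulated counts. Genes changed by a log2 of 1 were recovered in 0 of 67 cases. At a log2 of 2 it was 34 of 67 and at 3 it was 49 of 66, with 4 false calls among 5350 genes.

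Lists and members were chosen with earlier results of these data known. Named are the called genes, the 10 protein-coding genes of smallest p each way, up to 3 genes of smallest p per list or any member of a list described whole, the 2 most counted genes of a class, and DXO1, PR1 and RBCS1A. The genes around snoRNAs and AT2G33430 were singled out after their values were seen. Not every gene meeting the rule is printed.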

Additional observations from a re-analysis of the deposited data

How the results depend on the processing

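Counts of calls between dxo1 and Col-0 in total RNA without ABA moved with nearly every choice. Calls were 0 with DESeq2 size factors, without organelle genes, with a filter at 10 CPM on average and in a fit of the 4 NT libraries alone. Nuclear protein-coding genes alone gave 1, lower. Scaling by library size alone gave 8 (2 higher, 6 lower), the DESeq2 Wald test 34 (5 higher, 29 lower) and no low-count filter 128 (83 higher, 45 lower). Leaving out 1 library gave 0 to 65 calls, 0 to 65 of them lower; the lone library of a group is then assumed to vary like the other groups. The replicate block gave 82 (32 higher, 50 lower). It pairs libraries by number only, which 2 pairs cannot settle; across genes, deviations of same-numbered libraries correlated at 0.22. With ABA, library size alone gave 0 calls, the replicate block 22 and leaving out 1 library 0 to 360, the 360 without dxo1 ABA replicate 1, 1 without dxo1 ABA replicate 2 and 0 without either Col-0 library. The interaction gave 0 to 10 calls without 1 library, the 10 without dxo1 NT replicate 2. GMUCT gave 1359 to 2876 calls without 1 library, fewest without Col-0 NT replicate 2. NAD gave 0 with library size alone and 0 to 36 without 1 library, the 0 without dxo1 NT replicate 2 and the 36 without Col-0 NT replicate 2. The causes were not tested.

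Of the printed genes, 3 changed sign in some setting. RBCS1A stood at -0.10 without Col-0 replicate 1 and at -0.02 without dxo1 replicate 1, and at up to 0.28 without another library. LHCB1.5 stood at 0.018 with library size alone and at 0.018 with no low-count filter. AT3G21805 stood at 0.28 without Col-0 replicate 2 and at 0.51 without dxo1 replicate 1, and at -4.68 without dxo1 replicate 2. The medians of the light-harvesting, dark and starvation, defence, small RNA, decay, Calvin cycle and organelle genes kept their sign in each setting run. The chlorophyll synthesis, plastid transcription, heat shock, NAD synthesis, snoRNA and snRNA medians did not. With library size alone the median over all genes was 0.10. Depth limited the lists: 4 of 27 defence genes passed the filter on low counts.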
